A study of Homo sapiens with 6 samples.

Results

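The genes described here encode the nuclear subunits of the mitochondrial respiratory chain, in MDA-MB-231 breast cancer cells that received an siRNA against PTHrP or a control siRNA against luciferase. Members were all probe sets of the array whose annotation named a single gene with a symbol beginning NDUFA, NDUFB, NDUFC, NDUFS, NDUFV, SDHA, SDHB, SDHC, SDHD, UQCR, COX4, COX5, COX6, COX7, COX8 or ATP5. The rule found 109 of 22283 probe sets and 75 of the 11963 genes named by 1 symbol, and 10 further probe sets that carried several gene names were left out. Of the 75 genes, 64 encode subunits: 28 of complex I, 3 of complex II, 6 of complex III, 12 of complex IV and 15 of complex V. The other members are 7 assembly factors and 4 further genes, and they are described apart. These 4 are ATP5IF1, an inhibitor of ATP synthase, COX7A2L, a supercomplex factor, the pseudogene ATP5MC2P1 and the antisense RNA NDUFB2-AS1. Of the 75 genes, 71 were bright enough to be tested, among them 63 of the 64 subunit genes. COX7A1, the muscle isoform of a complex IV subunit, was the subunit gene that did not pass the filter on dim probe sets.

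MDA-MB-231 is an established breast cancer line of mesenchymal-like character. In 3 independent experiments these cells were electroporated with siPTHrP or with siLuc and were grown for 3 days before total RNA was taken. Each of the 6 RNAs was hybridised to 1 Affymetrix human genome U133 array of type A, so that each group has 3 arrays and each experiment holds 1 pair. The labels leave the pairing partly uncertain, as described with the processing. The comparison asks how the RNA of these cells differed between siPTHrP and siLuc within the same experiment. The p-values concern 3 transfections of 1 line. Their variance joins each probe set's own spread between experiments (2 degrees of freedom) with that of probe sets of like intensity (7.17 degrees of freedom).

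The respiratory chain sits in the inner mitochondrial membrane. Complex I (NADH dehydrogenase) and complex II (succinate dehydrogenase) pass electrons to ubiquinone, complex III (cytochrome bc1) passes them on to cytochrome c, and complex IV (cytochrome c oxidase) passes them to oxygen. Complexes I, III and IV pump protons, and complex V (ATP synthase) uses the proton gradient to make ATP. Most subunits are encoded in the nucleus, and the promoters of many of these genes are known to be bound by NRF1, by the ETS family factor GABP and by YY1.

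Values are linear MAS5 signal intensities, and differences are on the log2(intensity + 16) scale, siPTHrP minus siLuc. Each gene is represented by its brightest probe set. The median signal per array lay between 559 and 887, and the mean after trimming 2% at each end was 1500.4 to 1500.6 on all 6 arrays. The siLuc array of experiment 1 stood apart: its Spearman correlation with the other 5 arrays was 0.718 to 0.727, against 0.883 to 0.960 among those 5. Its hybridisation controls had a geometric mean signal of 231349, against 9127 to 34380 on the others. The transcript that the siRNA targets was not analysed here, so the knockdown was not checked. Of 7 markers of the mesenchymal-like line 6 passed the filter on dim probe sets, with VIM (vimentin) at 96463 to 154350 on the 6 arrays, and S100A4 did not, at 86 to 1066. Of 7 luminal or epithelial markers 4 passed (ESR1, ERBB3, GATA3 and FOXA1, at 154 to 1719.8 in all), and CDH1 (E-cadherin), at 23 to 436, EPCAM and PGR did not. Of the 4 genes in the leukocyte list 2 passed, CD3E at 506 to 1921.1 and HBB at 585 to 1740, and PTPRC and CD14 did not. HBB is a haemoglobin gene and no leukocyte marker. Of 4 fibroblast markers 2 passed, DCN at 177 to 1872.2 and COL1A1 at 1949 to 3198, and COL3A1 and LUM did not.

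Subunit transcripts lay on both sides of 0, with more above than below. Of the 63 subunit genes, 46 had a fold change above 0 and 17 below. The log2 fold changes ran from -0.80 for SDHA to 0.92 for NDUFA5 around a median of 0.13. Over all 8120 genes tested the median was 0.033 and 52.7% lay above 0. The median of the subunits was 0.23 in experiment 1, 0.066 in experiment 2 and 0.057 in experiment 3. The same medians over all genes were 0.088, -0.037 and -0.0035. The arrays measure RNA of whole cultures, so fewer cells that express a gene and less RNA per cell cannot be told apart in these values.

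No subunit passed the test. With limma and Benjamini-Hochberg adjustment over 13329 probe sets, 0% of probe sets were called at 0.05, and the lowest adjusted p among subunits was 0.328. At an unadjusted p under 0.05, 6 subunits had higher signal with siPTHrP (9.52%) and 6 had lower signal (9.52%), beside 7.06% and 5.57% of all genes. The sign was the same in all 3 experiments for 19 subunits above 0 (30.2%, against 20.2% of all genes) and for 9 below 0 (14.3%, against 19%). All 3 siPTHrP arrays were above all 3 siLuc arrays for 7 subunits (11.1%, against 9.56%), and all 3 were below for 8 (12.7%, against 10%). The median SD of the difference between experiments was 0.250 for the subunits and 0.479 for all genes. The subunits were also brighter than the genes they are set beside. On the log2 scale used for the differences, their median signal per array was 12.6 to 13.1, against 10.6 to 10.7 for all genes. Neither this SD nor the shares above were compared with genes of like brightness. Whether they go with brightness was therefore not tested.

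Experiment 1 rests on the siLuc array that stood apart. On that array 35 of the 63 subunits had their lowest signal of the 6 arrays (55.6%, against 34.6% of all genes), and 8 had their highest (12.7%, against 29.6%). Without that array, and with no pairing, 37 of 63 subunits lay above 0 with a median of 0.029, beside -0.025 over all probe sets. An unadjusted limma p under 0.05 was found for 7, 3 higher and 4 lower, beside 6.55% and 6.5% of all genes. Of the 33 subunits named by rule, 15 then had a log2 fold change more than 1.5 times larger or smaller, 12 of them nearer 0 or with the other sign. Without both arrays of experiment 1, 41 lay above 0 with a median of 0.052, beside -0.029 over all probe sets.

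The place of the subunits beside all genes turned with quantile normalization. With quantile normalization 35 of 63 lay above 0, and their median of 0.027 was below the 0.089 of all probe sets. At an unadjusted p under 0.05, 6 were then higher and 11 lower, beside 5.44% and 4.02% of all genes. Centring each array on its median moved the medians of all probe sets and of the subunits alike, to 0.11 and 0.21, so the distance of 0.10 between them stayed. It gave 10 higher and 3 lower, beside 8.89% and 4.1% of all genes. Without the intensity trend in limma's prior, 1 was higher and 2 were lower, beside 3.31% and 6.6%. Kept to the brightest 40% of probe sets, the subunits had a median of 0.13 beside 0.090 for all.

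**Figure D1:**
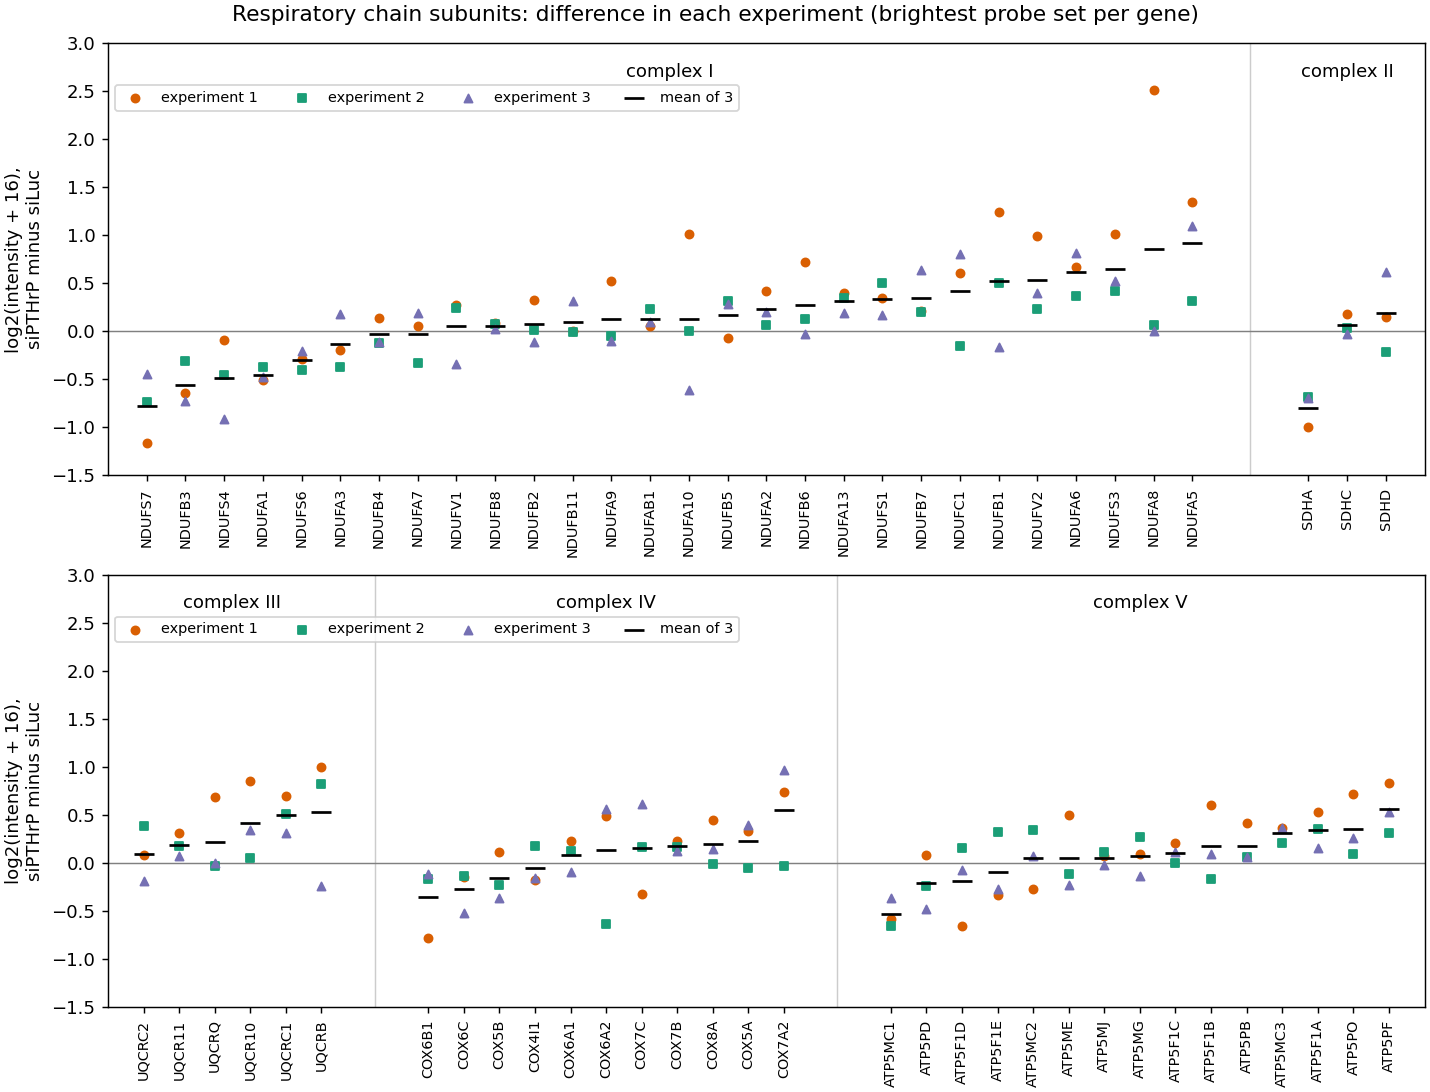
Difference in log2(intensity + 16), siPTHrP minus siLuc, for the 63 subunit genes by complex, with 1 symbol per experiment and a bar for the mean of 3. The bars run from -0.80 for SDHA to 0.92 for NDUFA5, and the farthest point is that of NDUFA8 in experiment 1, at 2.51.

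**Figure D2:**
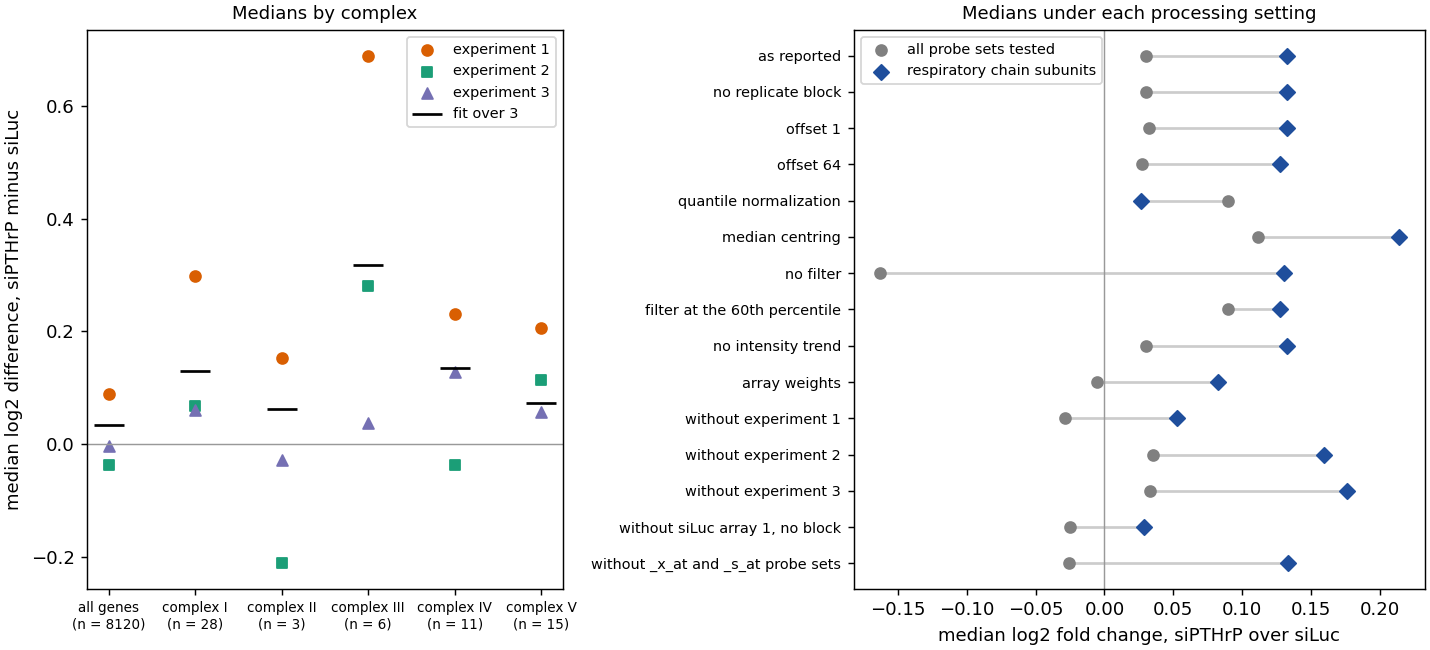
Left, the median log2 difference of each complex in each experiment and in the fit over 3. Right, the median log2 fold change of the subunits and of all probe sets under each processing setting, with the subunits above all probe sets in every setting shown but quantile normalization.

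Promoter sequences of 6 subunits are printed because these genes had the smallest p-values of complexes I, II, III and V, 3 with higher and 3 with lower signal with siPTHrP. They run 5′ to 3′ on the gene's own strand, from 250 bases before to 50 bases after the annotated start, as RefSeq gives them on GRCh38.p14. Capitals mark the letters GCGCANGCG (NRF1), CCGGAAG (ETS, the family of GABP) and AANATGGCG (YY1), searched on both strands. The windows are chr11:47578824-47579123 (plus strand) for NDUFS3, chr19:1383657-1383956 (plus) for NDUFS7, chr5:218070-218369 (plus) for SDHA, chr3:48609597-48609896 (minus) for UQCRC1, chr21:25735005-25735304 (minus) for ATP5PF and chr17:48892537-48892836 (plus) for ATP5MC1.
NDUFS3: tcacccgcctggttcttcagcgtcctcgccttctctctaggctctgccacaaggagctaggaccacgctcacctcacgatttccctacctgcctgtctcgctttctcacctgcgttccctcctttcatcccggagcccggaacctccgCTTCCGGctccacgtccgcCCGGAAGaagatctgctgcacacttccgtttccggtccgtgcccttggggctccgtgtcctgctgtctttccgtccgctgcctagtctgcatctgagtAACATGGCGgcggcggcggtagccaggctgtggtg
UQCRC1: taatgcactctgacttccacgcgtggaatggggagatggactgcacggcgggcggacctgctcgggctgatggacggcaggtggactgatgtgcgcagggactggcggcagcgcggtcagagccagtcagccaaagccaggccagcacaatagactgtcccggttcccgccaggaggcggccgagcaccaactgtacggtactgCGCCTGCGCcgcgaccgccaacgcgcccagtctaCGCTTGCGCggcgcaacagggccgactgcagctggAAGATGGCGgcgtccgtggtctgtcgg
ATP5PF: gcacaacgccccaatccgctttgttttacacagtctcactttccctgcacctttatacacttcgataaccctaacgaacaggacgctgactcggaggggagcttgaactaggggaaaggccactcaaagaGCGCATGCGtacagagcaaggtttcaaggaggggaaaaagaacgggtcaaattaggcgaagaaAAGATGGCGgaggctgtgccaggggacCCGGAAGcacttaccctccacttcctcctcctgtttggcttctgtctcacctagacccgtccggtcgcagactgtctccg
NDUFS7: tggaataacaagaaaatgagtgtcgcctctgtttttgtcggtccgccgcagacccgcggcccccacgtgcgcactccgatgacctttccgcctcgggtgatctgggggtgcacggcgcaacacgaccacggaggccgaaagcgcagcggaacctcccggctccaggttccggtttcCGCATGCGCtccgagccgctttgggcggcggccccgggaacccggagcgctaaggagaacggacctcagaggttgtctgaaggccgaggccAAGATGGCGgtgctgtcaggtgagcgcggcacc
SDHA: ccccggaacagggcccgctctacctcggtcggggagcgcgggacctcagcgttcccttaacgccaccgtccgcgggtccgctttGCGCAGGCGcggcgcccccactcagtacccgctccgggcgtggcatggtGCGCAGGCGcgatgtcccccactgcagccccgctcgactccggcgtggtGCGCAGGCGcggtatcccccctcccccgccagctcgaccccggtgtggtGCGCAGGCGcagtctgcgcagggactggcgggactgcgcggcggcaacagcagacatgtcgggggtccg
ATP5MC1: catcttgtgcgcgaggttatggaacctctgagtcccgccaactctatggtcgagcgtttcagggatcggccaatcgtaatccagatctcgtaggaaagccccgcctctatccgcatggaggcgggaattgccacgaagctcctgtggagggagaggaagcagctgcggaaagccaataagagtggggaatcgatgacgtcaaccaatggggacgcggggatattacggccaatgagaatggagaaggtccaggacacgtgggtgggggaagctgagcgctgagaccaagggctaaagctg

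Among these windows, that of SDHA held the NRF1 letters 4 times, starting at positions -166, -117, -68 and -19 from the start, each 49 bases from the one before. The UQCRC1 window held them at -46 and -12, with the YY1 letters at 24. The NDUFS7 window had NRF1 letters at -74 and YY1 letters at 18. The NDUFS3 window had ETS letters at -102 and -83 and YY1 letters at 16. All 3 motifs were found in the ATP5PF window, at -120 (NRF1), -57 (YY1) and -30 (ETS). The ATP5MC1 window held none of these letters. Windows of genes with higher and with lower signal therefore both carried NRF1 and YY1 letters.

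A window was found for 56 of the 64 subunits. The NRF1 letters stood in 33.9% of the 56, against 11% of the 15843 windows of protein-coding genes and 7.52% of all 35116 windows. The ETS letters stood in 30.4%, against 14.2% and 10.3%. The YY1 letters stood in 23.2%, against 4.81% and 3.19%, and 12 of the 13 windows held them after the start, between positions 9 and 42. These letters contain ATG, and whether a match covers the start codon of the gene was not checked. At least 1 motif was found in 62.5% of subunit windows, against 26% and 18.4%. By complex, NRF1 letters stood in 7 of 27 windows of complex I and 6 of 12 of complex V, but in 1 of 10 of complex IV. The ETS letters stood in 5 of 10 windows of complex IV and the YY1 letters in 9 of 27 of complex I. A match of letters is a description of the sequence and shows no binding.

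Fold changes of the subunits were also set beside these motifs. The median log2 fold change was 0.10 for the 19 genes with NRF1 letters (14 above 0) and 0.15 for the 37 without (27 above 0). It was 0.19 for the 17 with ETS letters (12 above 0) and 0.13 for the 39 without (29 above 0). For the YY1 letters it was 0.34 over 13 genes (9 above 0) and 0.13 over the 43 without (32 above 0). These differences were not tested.

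**Figure D3:**
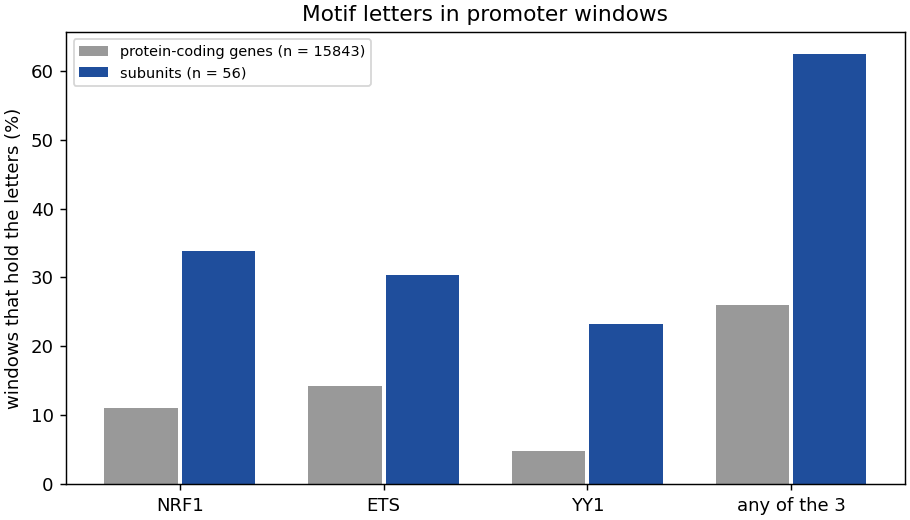
Share of 300-base promoter windows, in percent, that hold the letters of each motif, for 15843 protein-coding genes and for 56 subunits. The bars of the subunits are the taller ones for each motif, with 62.5% against 26% for any of the 3.

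In complex I, 20 of 28 subunits lay above 0 (median log2 fold change 0.13), and the medians of experiments 1, 2 and 3 were 0.30, 0.067 and 0.060. Without the siLuc array of experiment 1 the median was 0.063 with 16 of 28 above 0, and with quantile normalization it was 0.037 with 17 above 0. The core subunits include those that carry the flavin and the iron-sulphur clusters, and 4 of the 5 measured lay above 0, with a median of 0.34. Without the siLuc array of experiment 1 the 5 stood at 0.46 (NDUFS3), 0.28 (NDUFV2), 0.23 (NDUFS1), -0.043 (NDUFV1) and -0.61 (NDUFS7). NDUFS3, a core subunit of the peripheral arm, had signals of 3612, 5786 and 4947 with siLuc and 7300, 7756 and 7123 with siPTHrP. All 3 siPTHrP arrays were above all 3 siLuc arrays, and the siLuc array of experiment 1 was the lowest. The means were 4782 ± 1096 against 7393 ± 327 (SD, n = 3 each; log2 fold change 0.65, SE 0.19, 1.57-fold; limma adjusted p = 0.332).

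NDUFS7, the core subunit that carries the iron-sulphur cluster next to ubiquinone, lay on the other side. Its signals were 3576, 2479 and 2497 with siLuc and 1590, 1479 and 1824 with siPTHrP. All 3 siPTHrP arrays were below all 3 siLuc arrays, and the siLuc array of experiment 1 was the highest. The means were 2851 ± 628 against 1631 ± 176 (log2 fold change -0.78, SE 0.26, 0.581-fold; limma adjusted p = 0.36). NDUFS3 and NDUFS7, neighbours in the arm that leads to ubiquinone, thus had opposite signs in each of the 3 experiments.

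NDUFV2, a core subunit of the NADH-oxidising module with an iron-sulphur cluster, had signals of 4273, 6419 and 8295 with siLuc and 8511, 7530 and 10911 with siPTHrP. It was higher with siPTHrP in each experiment, but the groups overlapped, since siLuc of experiment 3 was above siPTHrP of experiment 2 (log2 fold change 0.54, SE 0.20, 1.45-fold; limma adjusted p = 0.379). Without the siLuc array of experiment 1 the log2 fold change was 0.28, and without experiment 1 its unadjusted limma p was 0.105. The other core subunits, outside the naming rule and given after their values were seen, were NDUFS1 (log2 fold change 0.34, limma adjusted p = 0.507) and NDUFV1 (0.057, limma adjusted p = 0.912).

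The accessory subunits surround the core, and most are needed to assemble or hold the complex. NDUFB3, an accessory subunit of the membrane arm, had signals of 5348, 4845 and 5143 with siLuc and 3417, 3896 and 3101 with siPTHrP. All siPTHrP arrays were below all siLuc arrays, with means of 5112 ± 253 against 3471 ± 400.3 (log2 fold change -0.56, SE 0.20, 0.678-fold; limma adjusted p = 0.367). NDUFA1, a small membrane subunit needed for assembly, had signals of 10641, 7703 and 9425 with siLuc and 7479, 5943 and 6793 with siPTHrP. Here too the groups did not overlap, and the difference was -0.51, -0.37 and -0.47 in experiments 1, 2 and 3 (log2 fold change -0.45, SE 0.16, 0.732-fold; limma adjusted p = 0.379).

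NDUFA6, an accessory subunit of the LYR motif family, had signals of 1579, 2177 and 1192 with siLuc and 2520, 2810 and 2103 with siPTHrP. Each experiment gave a higher siPTHrP value, but siLuc of experiment 2 was above siPTHrP of experiment 3 (log2 fold change 0.62, SE 0.26, 1.53-fold; limma adjusted p = 0.402). A dimmer probe set of the gene gave 0.37. NDUFS4, an accessory subunit whose loss is known from Leigh syndrome, was outside the rule for named genes and was chosen after its values were seen. Its signals were 5246, 6066 and 6851 with siLuc and 4924, 4429 and 3618 with siPTHrP. The groups did not overlap, but the difference ran from -0.091 in experiment 1 to -0.92 in experiment 3 (log2 fold change -0.49, SE 0.21, 0.713-fold; limma adjusted p = 0.408). NDUFS6, the other accessory NDUFS subunit measured and likewise chosen afterwards, stood at -0.30, below 0 in all 3 experiments.

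The NDUFA subunits other than these included the widest differences of complex I, and both came with uneven arrays. NDUFA8, chosen after its values were seen, had signals of 676, 3257 and 3708 with siLuc and 3932, 3411 and 3706 with siPTHrP. The siLuc array of experiment 1 was the only low array, and the differences were 2.51, 0.066 and -0.000775 in experiments 1, 2 and 3 (limma adjusted p = 0.453). NDUFA5, also chosen afterwards, was higher in each experiment, by 1.34, 0.32 and 1.09 (limma adjusted p = 0.432), with overlapping groups. Without experiment 3, NDUFA8 reached a limma adjusted p of 0.0458 with a log2 fold change of 1.29, and that value then rests on experiments 1 and 2 alone.

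NDUFAB1, the mitochondrial acyl carrier protein, and NDUFA13, also known as GRIM-19, were the complex I genes named for their bright probe sets. NDUFAB1 had signals of 11330, 12181 and 12541 with siLuc and 11734, 14319 and 13444 with siPTHrP, with overlapping groups (log2 fold change 0.13, SE 0.16, 1.09-fold; limma adjusted p = 0.737). NDUFA13 had signals of 9008, 9778 and 10817 with siLuc and 11873, 12474 and 12338 with siPTHrP, and all 3 siPTHrP arrays were above siLuc (log2 fold change 0.31, SE 0.16, 1.24-fold; limma adjusted p = 0.453). The 10 NDUFB and NDUFC subunits had a median of 0.14, with 8 above 0.

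**Figure D4:**
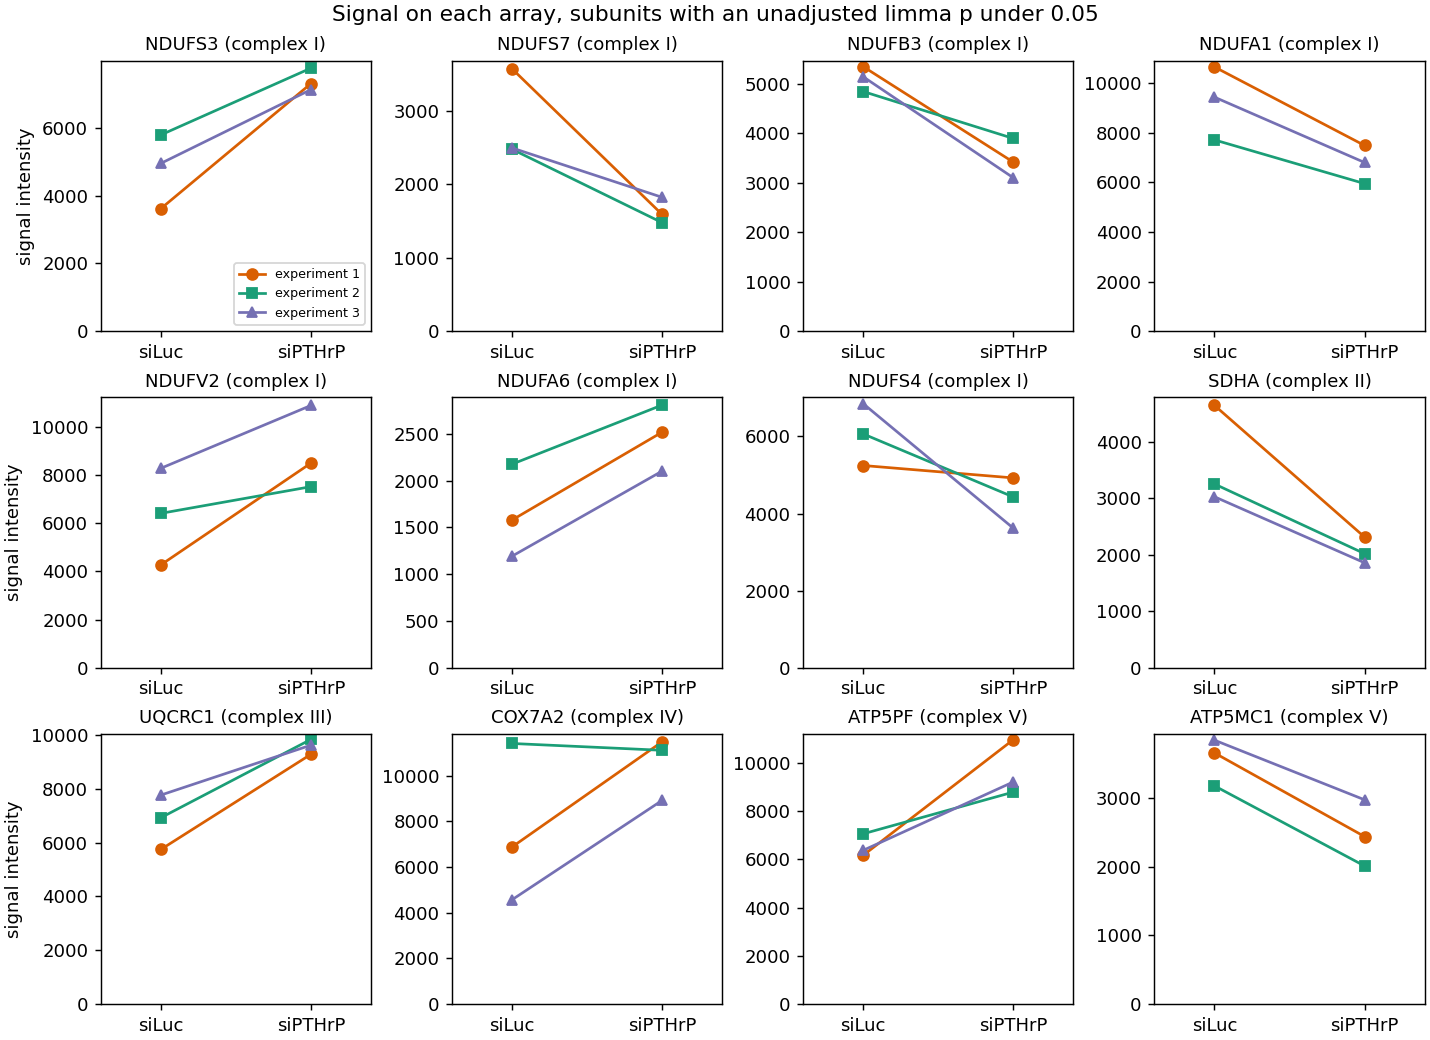
MAS5 signal intensity of the 12 subunits with an unadjusted limma p under 0.05 on each array, with lines joining the siLuc and siPTHrP arrays of 1 experiment and axes from 0. The lines of 11 genes run 1 way in all 3 experiments, and those of COX7A2 do not.

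Complex II was measured through 3 genes, with SDHA below 0 and both membrane anchors above 0. SDHA, the flavoprotein that oxidises succinate, had signals of 4642, 3250 and 3024 with siLuc and 2311, 2017 and 1855 with siPTHrP. All 3 siPTHrP arrays were below all 3 siLuc arrays, and the differences were -1.001, -0.68 and -0.70 in experiments 1, 2 and 3. The means were 3639 ± 876 against 2061 ± 231 (log2 fold change -0.80, SE 0.22, 0.576-fold; limma adjusted p = 0.328), the smallest p and the lowest fold change of any subunit. The unadjusted p was under 0.05 in 13 of 13 alternative analyses that kept the probe set, with log2 fold changes of -0.85 to -0.61 and adjusted p of 0.0836 to 0.532. The probe set is of a type that can match several transcripts, and SDHA has near-identical pseudogenes, so the signal may be shared and its value is uncertain.

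The anchors SDHC and SDHD hold the catalytic part in the membrane and bind ubiquinone. SDHC had signals of 6075, 7427 and 9919 with siLuc and 6900, 7596 and 9726 with siPTHrP, a log2 fold change of 0.062 (SE 0.17). SDHD had signals of 6122, 6621 and 3587 with siLuc and 6808, 5714 and 5510 with siPTHrP, a log2 fold change of 0.19 (SE 0.21). In both genes the groups overlapped and the sign was mixed over the experiments, with limma adjusted p of 0.886 and 0.708. With quantile normalization SDHC stood at -0.082. These SDHC values are those of its brightest probe set. The gene had 4 tested probe sets, 3 of them above 0, with log2 fold changes from -0.099 to 0.30. The one at 0.30 was higher with siPTHrP in each experiment, with no overlap of the groups.

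Complex III had the highest median of the 5 complexes, 0.32, with all 6 genes above 0, and in quantile normalization 5 of 6 with a median of 0.15. The medians of experiments 1, 2 and 3 were 0.69, 0.28 and 0.038, highest in experiment 1. Without the siLuc array of experiment 1 the median was 0.085. UQCRC1, a core protein on the matrix side, had signals of 5750.2, 6931 and 7774 with siLuc and 9293, 9848 and 9633 with siPTHrP. All siPTHrP arrays were above all siLuc arrays, with means of 6818 ± 1017 against 9591 ± 279.8 (log2 fold change 0.50, SE 0.17, 1.42-fold; limma adjusted p = 0.362).

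The small subunits of complex III varied more between experiments. UQCRB, which sits near the ubiquinone site, had signals of 6258, 5978 and 8381 with siLuc and 12542, 10591 and 7070 with siPTHrP. Experiments 1 and 2 gave 1.00 and 0.82 and experiment 3 gave -0.24, so that the groups overlapped (log2 fold change 0.53, SE 0.24, 1.44-fold; limma adjusted p = 0.424). Without experiment 3 its limma adjusted p was 0.0352 with a log2 fold change of 0.91, and UQCRB and NDUFA8 were the 2 subunits called in any alternative. UQCR10 had signals of 7275, 14527 and 12058 with siLuc and 13178, 15069 and 15300 with siPTHrP, higher with siPTHrP in each experiment, with siLuc of experiment 2 inside the siPTHrP range (log2 fold change 0.42, SE 0.19, 1.34-fold; limma adjusted p = 0.42). The siLuc array of experiment 1 was the lowest, and without it the log2 fold change was 0.13.

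UQCRQ had signals of 14389, 21394 and 21583 with siLuc and 23190, 20892 and 21582 with siPTHrP. The siLuc array of experiment 1 was the low one, and the other 5 arrays lay close together (log2 fold change 0.22, and 0.025 without that array; limma adjusted p = 0.62). UQCR11 stood at 0.19, and at 0.041 without that array, and was above 0 in each experiment, by 0.31, 0.18 and 0.075. UQCRC2, the other core protein, stood at 0.094 with a mixed sign (limma adjusted p = 0.846).

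In complex IV, 7 of 11 tested genes lay above 0, with a median of 0.13, and the medians of the 3 experiments were 0.23, -0.038 and 0.13. Without the siLuc array of experiment 1 the median was -0.00048 with 5 of 11 above 0, and with quantile normalization it was 0.015 with 6 above 0. The nuclear subunits of this complex surround the catalytic core that mitochondrial DNA encodes. COX7A2, the widely expressed isoform of a small membrane subunit, had signals of 6877, 11413 and 4565 with siLuc and 11488, 11114 and 8919 with siPTHrP. Experiments 1 and 3 gave 0.74 and 0.96 and experiment 2 gave -0.038, and the groups overlapped (log2 fold change 0.55, SE 0.21, 1.47-fold; limma adjusted p = 0.394).

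COX6B1, which faces the intermembrane space, and COX6C, a small membrane subunit, were below 0 in each experiment. COX6B1 had signals of 16547, 12732 and 14953 with siLuc and 9608, 11342 and 13803 with siPTHrP, with overlapping groups (log2 fold change -0.36, SE 0.18, 0.782-fold; limma adjusted p = 0.454). COX6C had signals of 24466, 26123 and 31413 with siLuc and 22059, 23674 and 21832 with siPTHrP, with all siPTHrP arrays below siLuc (log2 fold change -0.27, SE 0.16, 0.828-fold; limma adjusted p = 0.499). COX6C was the only tested complex IV gene whose groups did not overlap.

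The other complex IV genes lay closer to 0. COX5A, which lies on the matrix side, stood at 0.23 (SE 0.18), COX8A at 0.19 (SE 0.17; 0.013 without the siLuc array of experiment 1) and COX7B at 0.18 (SE 0.16), all small nuclear subunits. COX7B was above 0 in each experiment, by 0.23, 0.17 and 0.13, and stood at -0.0015 with quantile normalization. COX7C had signals of 36060.4, 30660 and 29998 with siLuc and 28888, 34416 and 45765 with siPTHrP, with differences of -0.32, 0.17 and 0.61 in experiments 1, 2 and 3. Its dimmer tested probe sets disagreed, with 1 at 0.20, above 0 in each experiment, and 1 at -0.33, below 0 in each. COX6A1, the isoform found in most tissues, had signals of 27002, 29629 and 35230 with siLuc and 31675, 32251 and 32980 with siPTHrP and stood at 0.086 (SE 0.16). COX6A2, the muscle isoform, chosen after its values were seen, passed the filter with signals of 519 to 1084 and stood at 0.13 (SE 0.46). The lowest limma adjusted p of these 6 genes was 0.587. COX5B (-0.16, SE 0.17; limma adjusted p = 0.693) and COX4I1 (-0.054, SE 0.16; limma adjusted p = 0.901) lay below 0, with a mixed sign over the experiments. Both were given after their values were seen, and each had tested probe sets on both sides of 0.

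In complex V, 11 of 15 genes lay above 0 with a median of 0.073, which was -0.080 with 6 of 15 above 0 under quantile normalization. The medians of experiments 1, 2 and 3 were 0.21, 0.11 and 0.057, and without the siLuc array of experiment 1 the median was 0.029 with 9 above 0. The F1 part makes ATP, the c ring in the membrane turns with the proton flow, and the peripheral stalk holds F1 in place. ATP5PF, coupling factor 6 of the peripheral stalk, had signals of 6167, 7059 and 6374 with siLuc and 10965, 8790 and 9211 with siPTHrP. All siPTHrP arrays were above all siLuc arrays, with means of 6533 ± 467 against 9655 ± 1154 (log2 fold change 0.56, SE 0.18, 1.47-fold; limma adjusted p = 0.355).

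The peripheral stalk had 3 of its 4 measured genes above 0 and a median of 0.27. Without the siLuc array of experiment 1 these stood at 0.52 (ATP5PF), 0.14 (ATP5PO), 0.13 (ATP5PB, given afterwards) and -0.40 (ATP5PD). ATP5PO, the oligomycin sensitivity conferring protein, had signals of 7438, 11554 and 11646 with siLuc and 12249, 12288 and 13895 with siPTHrP. Its groups did not overlap, with the siLuc array of experiment 1 the lowest (log2 fold change 0.35, SE 0.18, 1.28-fold; limma adjusted p = 0.453). Without that array it stood at 0.14. The mean of its probe sets was -0.083, below 0. ATP5PD was the stalk gene below 0, at -0.21 (SE 0.17), with signals of 14460.5, 17645 and 25409 with siLuc and 15311, 14881 and 18202 with siPTHrP.

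The c subunit is encoded by 3 genes, ATP5MC1, ATP5MC2 and ATP5MC3, whose mature proteins are the same. ATP5MC1 had signals of 3654, 3175 and 3840 with siLuc and 2437, 2009 and 2972 with siPTHrP. All siPTHrP arrays were below all siLuc arrays, with means of 3556 ± 343 against 2473 ± 482 (log2 fold change -0.54, SE 0.21, 0.69-fold; limma adjusted p = 0.396). ATP5MC3 had signals of 10052, 13561 and 8884 with siLuc and 12940, 15648 and 11407 with siPTHrP, above 0 in each experiment but with overlapping groups (log2 fold change 0.31, SE 0.16, 1.24-fold; limma adjusted p = 0.453). ATP5MC2, given afterwards to complete the c subunit genes, stood at 0.046 (SE 0.18), with a mixed sign. The 3 genes thus had fold changes on both sides of 0, and their differences from each other were not tested.

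Of the 5 F1 subunits 3 lay above 0. ATP5F1A, the alpha subunit, had signals of 17418, 18671 and 18391 with siLuc and 25056, 23915 and 20446 with siPTHrP. Its groups did not overlap (log2 fold change 0.34, SE 0.16, 1.27-fold; limma adjusted p = 0.424). ATP5F1B, the catalytic beta subunit, had signals of 19008, 36833 and 30516 with siLuc and 28938, 32882 and 32526 with siPTHrP. The siLuc array of experiment 1 was low, and without that array the log2 fold change was -0.095, against 0.18 with it. ATP5F1C, the gamma subunit of the central stalk, stood at 0.10 (SE 0.15), and at -0.056 without that array. The other F1 subunits lay below 0, ATP5F1D (delta) at -0.19 (SE 0.22) and ATP5F1E (epsilon) at -0.096 (SE 0.18), both with a mixed sign over the experiments. They were given after their values were seen. Without the same siLuc array ATP5F1D stood at 0.029. The 3 small membrane subunits lay between 0.051 and 0.073.

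Several genes were read by more than 1 probe set, and these did not always point the same way. Of 17 subunit genes with at least 2 tested probe sets, 11 had probe sets on both sides of 0, and the median gap between the highest and lowest was 0.49. The widest gap was that of NDUFB7, an accessory complex I subunit, at 0.35 for the brighter probe set and -1.87 for the dimmer. The dimmer set had signals of 1787, 545 and 630 with siLuc and 184, 131 and 441 with siPTHrP. COX5B came next, with 4 probe sets from -1.63 to 0.41, 2 of them above 0. UQCRB ranged from -0.44 to 0.53 over 3 probe sets, the lowest from a dim one. The values of these 3 genes are uncertain for that reason.

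**Figure D5:**
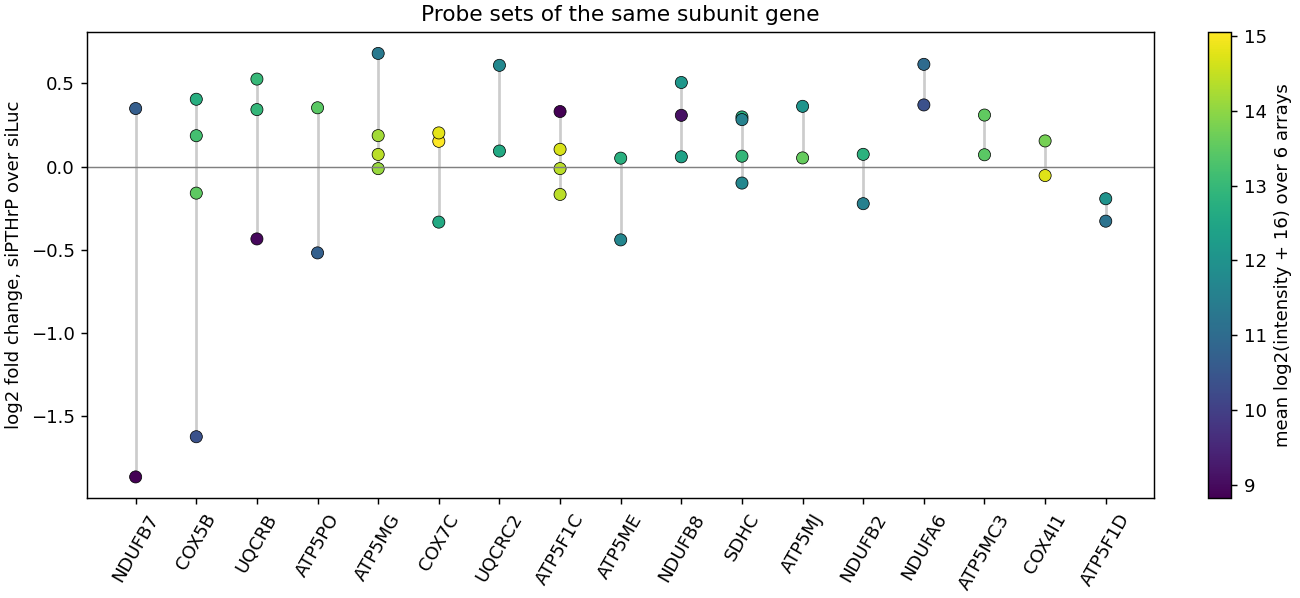
Log2 fold change, siPTHrP over siLuc, of each tested probe set of the 17 subunit genes with more than 1, coloured by the mean log2(intensity + 16) over 6 arrays. The probe sets of NDUFB7 and COX5B lie farthest apart, and the lowest point of each is a dim probe set of that gene.

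The members that are no subunits were described apart. Of the 7 assembly factors 5 were tested, and 2 lay above 0. NDUFAF3, which helps to assemble complex I, had signals of 3268, 3459 and 4913 with siLuc and 5148, 7453 and 4562 with siPTHrP, with overlapping groups (log2 fold change 0.55, limma adjusted p = 0.412). SDHAF1, which helps to load iron-sulphur clusters into complex II, had signals of 176, 2876 and 3531 with siLuc and 2391, 2436 and 3143 with siPTHrP. As for NDUFA8, the siLuc array of experiment 1 was the only low one, and the differences were 3.65, -0.24 and -0.17. ATP5IF1, the inhibitor of ATP synthase, stood at 0.28 with all siPTHrP arrays above siLuc (limma adjusted p = 0.57). COX7A2L, a factor of respiratory supercomplexes, stood at -0.0036. SDHAF1, ATP5IF1 and COX7A2L were chosen after their values were seen.

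Lists of related genes were set beside the subunits. Of 10 electron carrier genes, 8 were tested, 6 lay above 0 and 4 had an unadjusted p under 0.05, all higher with siPTHrP (7.06% of all genes), with a median of 0.53. CYCS, cytochrome c, had signals of 5253, 8949 and 6652 with siLuc and 16582, 13256 and 14384 with siPTHrP. The groups were well apart, with no overlap and means of 6951 ± 1866 against 14741 ± 1691 (log2 fold change 1.11, SE 0.22, 2.16-fold; limma adjusted p = 0.287). CYC1, the cytochrome c1 of complex III that the symbol rule does not catch, had signals of 5807, 7787 and 8224 with siLuc and 11110, 12284 and 10198 with siPTHrP, also with no overlap (log2 fold change 0.63, SE 0.18, 1.55-fold; limma adjusted p = 0.328). ETFB, which feeds electrons from fatty acid oxidation, stood at 0.68 (limma adjusted p = 0.351). PDSS1, of ubiquinone synthesis, the fourth by p and named after its value was seen, stood at 0.95 with an unadjusted p of 0.0175 in limma. None of them passed the adjustment.

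The list of assembly factors held 18 tested genes, 5 of them members described above (NDUFAF1, NDUFAF3, NDUFAF4, SDHAF1 and the inhibitor ATP5IF1). Of the other 13, 11 lay above 0 with a median of 0.21, and 1 had an unadjusted p under 0.05, above 0 (7.06% of all genes), SURF1 of complex IV assembly (0.46, limma adjusted p = 0.402). COX11, a copper chaperone of complex IV, stood at 0.48. Of 15 regulators of mitochondrial biogenesis, 9 lay above 0 with a median of 0.088. TFB2M, a mitochondrial transcription factor, stood at 0.60 (limma adjusted p = 0.377), GABPB1, a GABP subunit, at 0.77, and TFAM, which packs mitochondrial DNA, at -0.54. The factor NRF1 itself, chosen after its values were seen, stood at -0.57 with a mixed sign (limma adjusted p = 0.592).

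Of 17 genes of the TCA cycle and pyruvate dehydrogenase, 8 lay above 0 with a median of -0.014. DLST stood at 0.65, OGDH at 0.84 and PDHB at -0.33, where DLST and OGDH belong to the oxoglutarate dehydrogenase complex and PDHB to pyruvate dehydrogenase. OGDH had signals of 407, 2906 and 2606 with siLuc and 2590, 2632 and 2688 with siPTHrP, again with 1 low siLuc array. Of 17 carriers, porins and import genes, 13 lay above 0 with a median of 0.18, and at an unadjusted p under 0.05 there were 4 above 0 and 1 below, beside 7.06% and 5.57% of all genes. TIMM17A, of the inner membrane translocase, had signals of 3170.4, 1995 and 1667 with siLuc and 5144, 4573 and 4041 with siPTHrP, with no overlap (log2 fold change 1.05, SE 0.22, 2.07-fold; limma adjusted p = 0.314). TOMM40, the pore of the outer membrane translocase, had signals of 7854, 5814 and 11016 with siLuc and 3342, 3569 and 8320 with siPTHrP, lower in each experiment but with overlapping groups (log2 fold change -0.78, SE 0.20, 0.583-fold; limma adjusted p = 0.324). VDAC3, a porin, stood at 0.49 (limma adjusted p = 0.371).

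Calls at an adjusted p under 0.05 appeared in some alternatives over all probe sets. Array weights in limma gave 1.33% of probe sets, and leaving out experiments 1, 2 or 3 gave 0.248%, 0.353% and 1.61%. No subunit was among the calls, except UQCRB and NDUFA8 without experiment 3.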

How the data were processed

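Total RNA of 6 samples, 3 with siPTHrP and 3 with siLuc, was hybridised to Affymetrix human genome U133 arrays of type A, per the labels' protocols. The authors deposited linear signal intensities made with MAS5, per the submitters' processing notes, with settings not given in the sources used here. Their scaling was kept. Experiment 1 was given to the unnumbered siLuc sample, the number left over, and where title and description of the siLuc sample of experiment 3 differ, the title was followed. The design text pairs RNAs by experiment, so experiment was a block. Deviations from the group means correlated at -0.012, 0.157 and 0.157 for the same-experiment pairs of experiments 1, 2 and 3, and at -0.206 to 0.132 for other pairs.

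The table holds 22283 probe sets. After removal of 68 controls, 13329 had a mean log2(intensity + 16) at or above the 40th percentile (8.61, a signal of 376). The paired model used lmFit and eBayes (trend by intensity; limma 3.58.1, R 4.3.3; 2 residual and 7.17 prior degrees of freedom), with two-sided p-values adjusted by Benjamini-Hochberg and called under 0.05. The fit was run on simulated arrays with even noise, no outlying array and changes larger than those of the subunits. Its power for changes and arrays like those seen here was therefore not tested. Annotation gave 19071 probe sets 1 gene, 1043 several and 2169 none, and symbols were updated to RefSeq names. Promoter windows came from RefSeq (GRCh38.p14), and for 8 subunits with several windows the one listed first was used. Motif matches may overlap each other. Members and lists were chosen with earlier results of these data known. The genes named were, per complex, the 6 with the smallest p, the 2 with the brightest probe sets and any that passed, then the 3 widest probe set gaps and the 3 smallest p per related list. Genes outside this rule are marked in the text as chosen afterwards. The precision is limited by 3 arrays per group.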

Additional observations from a re-analysis of the deposited data

How the results depend on the processing

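Values of 33 named subunits were recomputed under each alternative, which gave 482 values. Of these, 463 kept their direction and their side of the threshold, 1 passed it (UQCRB without experiment 3, 0.91) and 18 changed sign, in 12 genes. Leaving out the block or the intensity trend, or changing the filter, cannot move a fold change here. Values from those alternatives kept their direction by design, and no subunit had passed the threshold before. The tally therefore does not measure how stable the directions are. Without the replicate block 9 subunits had an unadjusted p under 0.05, beside 12 with the pairing, and 0 probe sets were called with or without it. Without the intensity trend 3 subunits had a p under 0.05, and without the siLuc array of experiment 1, with no block, 7. Over all probe sets, 177 were called with array weights, 5 without the _x_at and _s_at probe sets and 33 to 215 when 1 experiment was left out. The median of complex IV was -0.093 without _x_at and _s_at probe sets and -0.0035 to 0.14 when arrays were left out. That of complex V was -0.080 with quantile normalization, 0.15 with median centring, 0.25 without _x_at and _s_at probe sets and 0.029 without the siLuc array of experiment 1, and 0.052 to 0.18 without 1 experiment. With quantile normalization NDUFAB1 stood at -0.046, SDHC at -0.082, UQCRC2 at -0.039, COX7B at -0.0015 and ATP5F1C at -0.054. Without _x_at and _s_at probe sets UQCRB stood at -0.44 and COX7C at -0.33. ATP5F1B stood at -0.0065 with array weights, and the mean of the ATP5PO probe sets was -0.083. Leaving out 1 experiment gave -0.030 to 0.38 for SDHD, -0.017 to 0.34 for UQCRQ, -0.053 to 0.24 for UQCRC2, -0.077 to 0.39 for COX7C and -0.036 to 0.35 for ATP5F1B. Without the siLuc array of experiment 1, SDHC stood at -0.10, COX6A1 at -0.00048, ATP5F1B at -0.095 and ATP5F1C at -0.056. The cause of these changes was not tested. Dim probe sets limit the values of NDUFA5 and COX6A2 and of the dimmer NDUFB7 probe set.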
